A study of Mus musculus with 11 samples.

Results

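Genes that move doxorubicin across membranes, reduce it or conjugate reactive products to glutathione were examined in MCA fibrosarcomas grown under the skin of mice with and without the formyl peptide receptor Fpr1. The set was defined by gene symbol as the ATP-binding cassette (ABC) families Abca to Abcg, the carbonyl reductases (Cbr), the aldo-keto reductases (Akr), Nqo1, Nqo2, Por, Xdh, the cytosolic glutathione S-transferases of the alpha, mu, pi, theta and omega classes, and the Slc22a organic ion carriers. A gene entered if a probe of it had a detection p under 0.05 on 2 or more arrays, and 56 of the 59 annotated symbols did, out of 10623 genes tested. Abcc6, Slc22a14 and Slc22a18 did not pass, and no probe used here carries the name of Por, Abcb1a, Abcc1, Abcc2, Abcg2, Abcb4, Abca1, Akr1b3, Cbr4 or Slc22a16, so these were not analysed here.

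Whole-tumour RNA from 11 tumours was hybridised to Illumina bead arrays, and every host was a C57BL/6 mouse of 10 to 12 weeks. The groups were FPR1-/- hosts given intratumoral doxorubicin (KO DX, 2 tumours), FPR1-/- hosts given PBS (KO PBS, 3 tumours), wt hosts given doxorubicin (WT DX, 3 tumours) and wt hosts given PBS (WT PBS, 3 tumours). Doxorubicin was injected once at 2.9 mg per kg in 50 μl when the tumour surface measured 25 to 45 mm2, and tumours were taken 2 days later. The labels place the receptor deletion in the host and do not say whether the implanted cells carry it. The source names number the tumours MCA 205 to MCA 215, a different number for each sample, so a difference between tumour lines and a difference between tumours cannot be told apart. No probe used here is named Fpr1, so the deletion was not checked.

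Doxorubicin is an anthracycline, a quinone that binds DNA and traps topoisomerase II. P-glycoprotein, in mice made from Abcb1a and Abcb1b, and several Abcc proteins spend ATP to pump the drug or its conjugates out of a cell. Carbonyl and aldo-keto reductases convert its side-chain ketone to an alcohol, doxorubicinol, while quinone and flavin enzymes such as Nqo1 and Xdh can act on the quinone ring, and glutathione S-transferases couple glutathione to electrophiles and lipid peroxidation products. The transcription factor NRF2 switches on many of these enzymes through antioxidant response elements, and the aryl hydrocarbon receptor acts through xenobiotic response elements.

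The start-site regions of 5 members are shown, because the first 3 belong to members with wide differences in the arrays and the last 2 hold an antioxidant response element core. They come from RefSeq (GRCm38.p6) and run from 250 bases before to 50 bases after the annotated start, 5′ to 3′ on the gene's strand. Capitals mark the letters TGACNNNGC (the antioxidant response element core), TGANTCA (an AP-1 site) or GCGTG (the xenobiotic response element core) on either strand, and these motifs can overlap. Gstt3 and Abcc4 have 2 annotated starts each, of which 1 is shown.
Gstt3, chr10:75781373-75781672, minus strand: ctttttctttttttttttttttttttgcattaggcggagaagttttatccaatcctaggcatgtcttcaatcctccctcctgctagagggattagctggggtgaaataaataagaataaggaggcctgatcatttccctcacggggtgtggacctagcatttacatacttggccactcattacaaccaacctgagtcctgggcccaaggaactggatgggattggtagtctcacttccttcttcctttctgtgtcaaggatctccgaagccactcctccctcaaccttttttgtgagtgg
Cbr2, chr11:120731972-120732271, minus strand: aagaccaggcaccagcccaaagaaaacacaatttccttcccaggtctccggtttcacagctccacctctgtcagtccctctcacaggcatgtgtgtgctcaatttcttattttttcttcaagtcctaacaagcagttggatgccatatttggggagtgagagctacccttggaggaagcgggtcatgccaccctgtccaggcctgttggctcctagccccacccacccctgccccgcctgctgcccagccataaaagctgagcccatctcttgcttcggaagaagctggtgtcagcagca
Gstp2, chr19:4042172-4042471, minus strand: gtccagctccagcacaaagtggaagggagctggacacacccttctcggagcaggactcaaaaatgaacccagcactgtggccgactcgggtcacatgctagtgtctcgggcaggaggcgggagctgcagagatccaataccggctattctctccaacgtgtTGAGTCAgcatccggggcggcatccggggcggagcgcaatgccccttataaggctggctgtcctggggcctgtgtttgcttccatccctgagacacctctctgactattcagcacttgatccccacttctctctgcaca
Abcc4, chr14:118706170-118706469, minus strand: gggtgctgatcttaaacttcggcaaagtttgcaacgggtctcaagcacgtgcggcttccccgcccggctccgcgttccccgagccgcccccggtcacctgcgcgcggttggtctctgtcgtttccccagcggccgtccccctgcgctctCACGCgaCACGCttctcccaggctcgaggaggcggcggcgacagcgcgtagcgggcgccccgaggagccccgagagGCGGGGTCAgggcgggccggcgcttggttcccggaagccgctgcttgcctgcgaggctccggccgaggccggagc
Gstm5, chr3:107895604-107895903, plus strand: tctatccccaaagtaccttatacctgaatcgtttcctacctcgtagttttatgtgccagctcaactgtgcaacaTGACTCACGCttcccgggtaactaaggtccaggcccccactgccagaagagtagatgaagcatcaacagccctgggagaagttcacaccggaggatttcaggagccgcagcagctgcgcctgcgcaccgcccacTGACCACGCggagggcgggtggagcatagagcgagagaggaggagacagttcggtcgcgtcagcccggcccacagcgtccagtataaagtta

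Of the 56 members, 47 had an entry in the promoter table, with 57 start sites. The antioxidant response element core lay in 3 of these windows (5.26%), against 12.4% of all 32851 windows, and the genes were Abcc4 and Gstm5. The AP-1 letters lay in 4 windows (7.02%, against 7.81% of all), those of Gstp1, Gstp2, Gstm5 and Nqo2. The xenobiotic response element core lay in 21 windows (36.8%, against 32.4% of all). The windows of Gstt3 and Cbr2 held none of these letters, which says nothing of more distant sequence.

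Signal is given as background-corrected, quantile-normalised log2 intensity, on which a step of 1 is a doubling, and levels of different genes are not compared. Each array detected 35.7% to 40.2% of 45281 probes. The arrays lay on 5 BeadChips, and the 2 arrays of chip 2 (KO PBS 2 and WT PBS 1) were dimmer, with median intensities of 118 and 110, against 151 to 169 on the other arrays. Eif2s3y, a Y-linked gene, had a log2 signal of 8.53 on WT DX 2 and 8.52 on WT PBS 3, against 4.41 to 4.94 elsewhere, so these libraries differ from the rest of their groups. Fibroblast and fibrosarcoma markers (7 of 7 measured) had summed signals of 20307 to 20857 in KO DX and 23894 to 27009 in KO PBS, without overlap. The sums were 20532 to 22546 in WT DX and 20629 to 24338 in WT PBS, which overlapped. In a whole-tumour sample, fewer cells of a type and less RNA per cell cannot be told apart, and the labels do not say that the tumours of a group came from separate mice, so p-values measure the spread between these samples, which may be technical.

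No member passed an adjusted p of 0.05 (limma, Benjamini-Hochberg over 10623 genes) in any of the 7 comparisons. For doxorubicin against PBS in KO hosts, 0 of 56 members and 0% of all genes passed. In WT hosts 0 of 56 members passed, against 0.621% of all genes (66 genes), and averaged over hosts 0 of 56, against 0.537%. At an unadjusted p under 0.05, the members numbered 4 of 56 (7.14%, all genes 5.36%) in KO hosts, 9 of 56 (16.1%, all genes 11.7%) in WT hosts and 10 of 56 (17.9%, all genes 11.6%) averaged over hosts. Of the 9 in WT hosts, 8 were higher with doxorubicin (14.3%, all genes 6.68%) and 1, Abcb8, was lower (1.79%, all genes 5.04%). Doxorubicin and PBS tumours did not overlap for 16 of 56 members in KO hosts (28.6%, all genes 27%) and for 10 of 56 in WT hosts (17.9%, all genes 13.7%). With an unadjusted p under 0.01 as well, these were 0 of 56 in KO hosts (all genes 1.44%) and 4 of 56 in WT hosts (7.14%, all genes 3.85%), namely Akr1c18, Gstp2, Gstt3 and Abca8a, the last of which was detected on WT DX arrays alone and so had to differ.

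The median of the members stayed close to that of all genes. Their median log2 difference between doxorubicin and PBS was 0.02 in KO hosts (all genes -0.0063) and -0.0057 in WT hosts (all genes -0.030), with 29 members above 0 in KO hosts (51.8%, all genes 48.7%) and 28 in WT hosts (50%, all genes 45%). The 95% interval of the difference lay within a 2-fold change either way for 45 of 56 members in KO hosts (80.4%, all genes 88.4%) and for 47 of 56 in WT hosts (83.9%, all genes 89%). For most members a change of over 2-fold therefore lies outside the interval, while a 1.5-fold change does not for most. The interval stayed within 1.5-fold for 17 members in KO hosts (30.4%, all genes 46.3%) and 22 in WT hosts (39.3%, all genes 51.7%). At both limits the share was lower among members than among all genes. In the values the authors normalised themselves, 22 members passed in KO hosts (39.3%, all genes 47.8%) and 34 in WT hosts (60.7%, all genes 51.3%), but there the WT DX 2 and WT PBS 2 columns equal the mean of the other columns of their group.

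**Figure D1:**
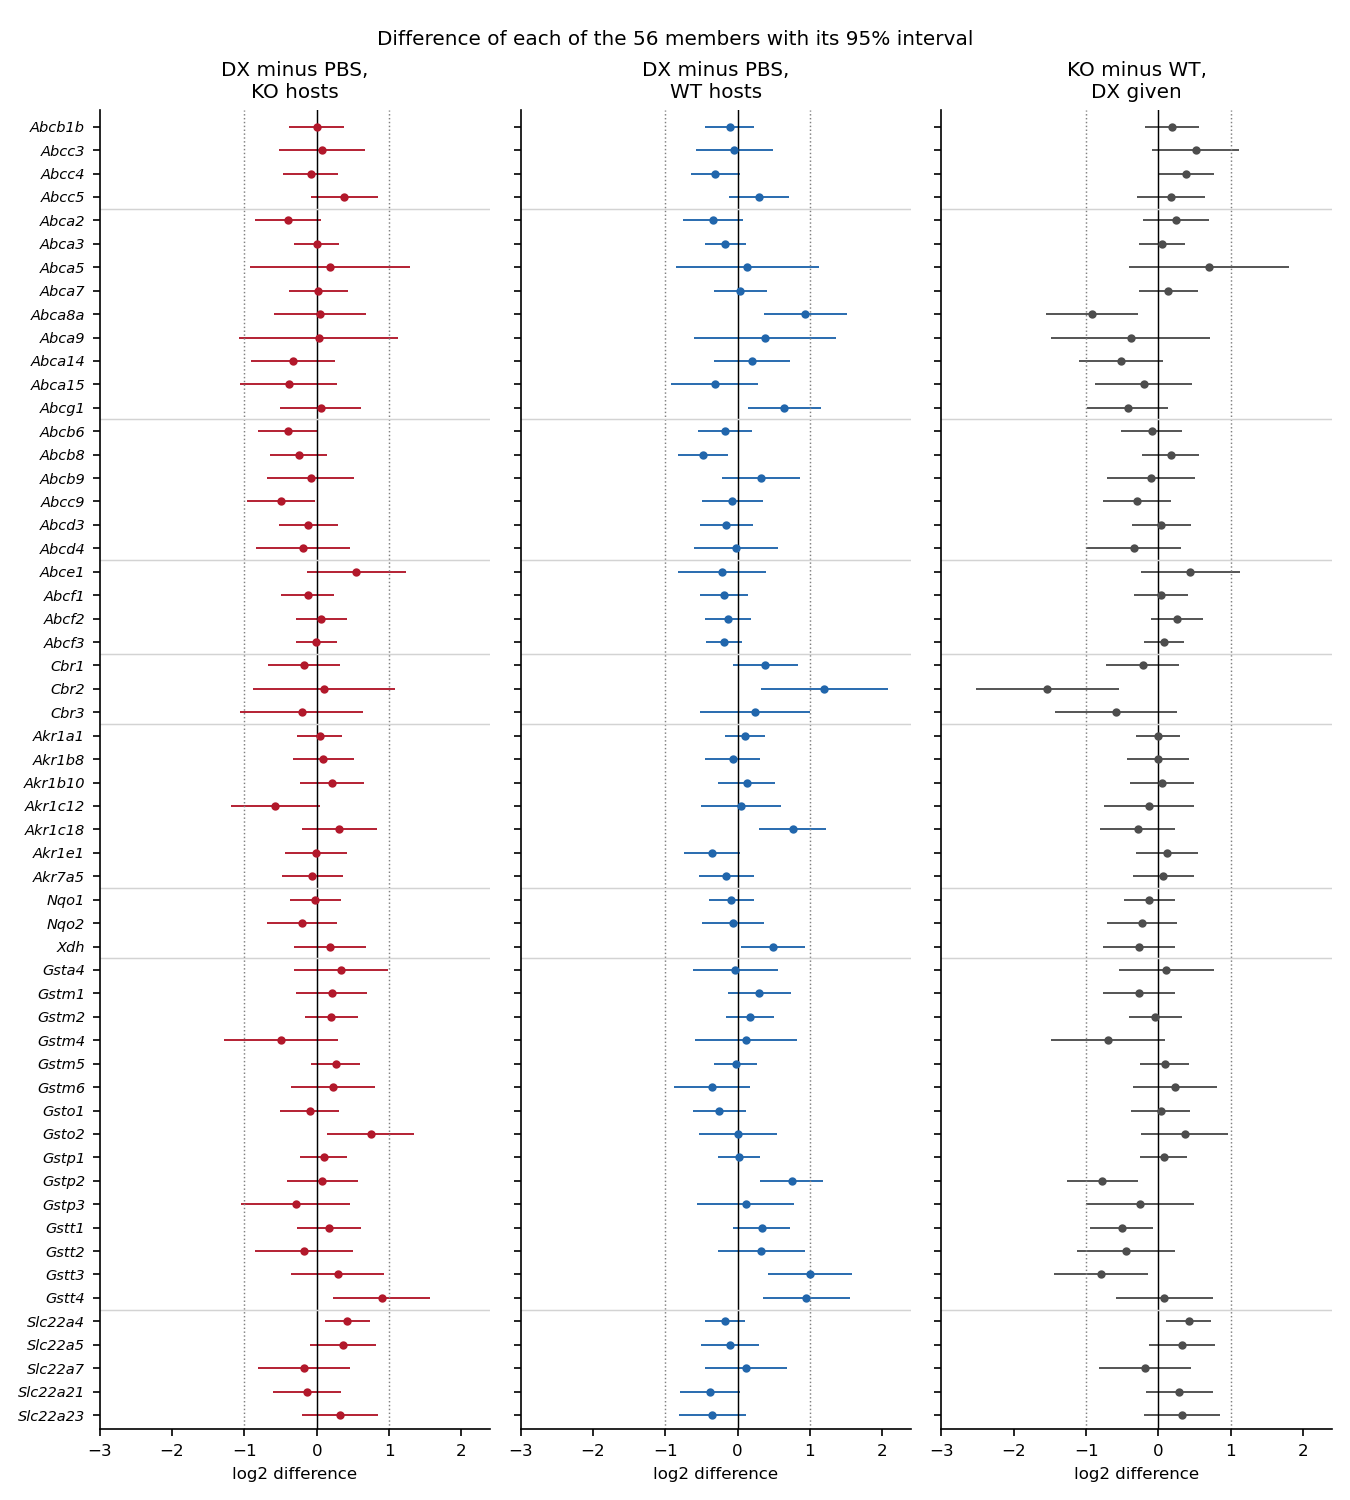
Log2 difference of each of the 56 members with its 95% interval (horizontal bars), for doxorubicin minus PBS in KO hosts (left), in WT hosts (middle), and for KO minus WT hosts given doxorubicin (right). Grey horizontal lines separate the roles, and dotted lines mark a 2-fold difference. Values of Abca8a, Abca14, Abca15, Gstm4 and Gstm6 against a group not well above background are not exact. Most intervals cross 0, and Cbr2 has the lowest value of the right panel (-1.53) and the highest of the middle panel (1.20).

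The drug and anion pumps differed little between doxorubicin and PBS. Abcb1b, the P-glycoprotein gene that exports anthracyclines, had log2 signals of 11.47 and 11.53 in KO DX tumours, 11.71, 11.43 and 11.36 in KO PBS, 11.45, 11.17 and 11.32 in WT DX, and 11.16, 11.49 and 11.61 in WT PBS. The doxorubicin and PBS tumours overlapped in both hosts. The difference was -0.0004 in KO hosts (95% interval -0.38 to 0.38) and -0.11 in WT hosts (-0.44 to 0.23; adjusted p = 0.831 by limma), so an induction of 2-fold lies outside both intervals.

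Abcc4 (Mrp4), an exporter of cyclic nucleotides and prostanoids, had 9.72 and 9.71 in KO DX, 9.61, 9.84 and 9.94 in KO PBS, 9.35, 9.42 and 9.21 in WT DX, and 9.34, 9.71 and 9.86 in WT PBS. Only WT PBS 1, an array of the dim chip, reached down into the range of the WT DX tumours, and the difference was -0.31 (SE 0.15, adjusted p = 0.475) in WT hosts and -0.08 in KO hosts. Abcc5 (Mrp5), which also carries cyclic nucleotides, had 7.32 and 7.25 in KO DX, 6.58, 7.25 and 6.86 in KO PBS, 7.11, 7.26 and 6.94 in WT DX, and 7.06, 6.54 and 6.82 in WT PBS. Its differences were close in size in the 2 hosts, 0.38 in KO and 0.30 in WT, and averaged 0.34 (SE 0.14, adjusted p = 0.384). Abcc3 (Mrp3), an exporter of glucuronides, had 8.66 and 8.48 in KO DX, 8.35, 8.98 and 8.17 in KO PBS, 8.09, 7.63 and 8.46 in WT DX, and 8.17, 7.87 and 8.27 in WT PBS, with overlap in both hosts. All 4 pumps lay above 0 in KO against WT hosts both with doxorubicin and with PBS, by at most 0.51 (Abcc3 with doxorubicin), and none passed.

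**Figure D2:**
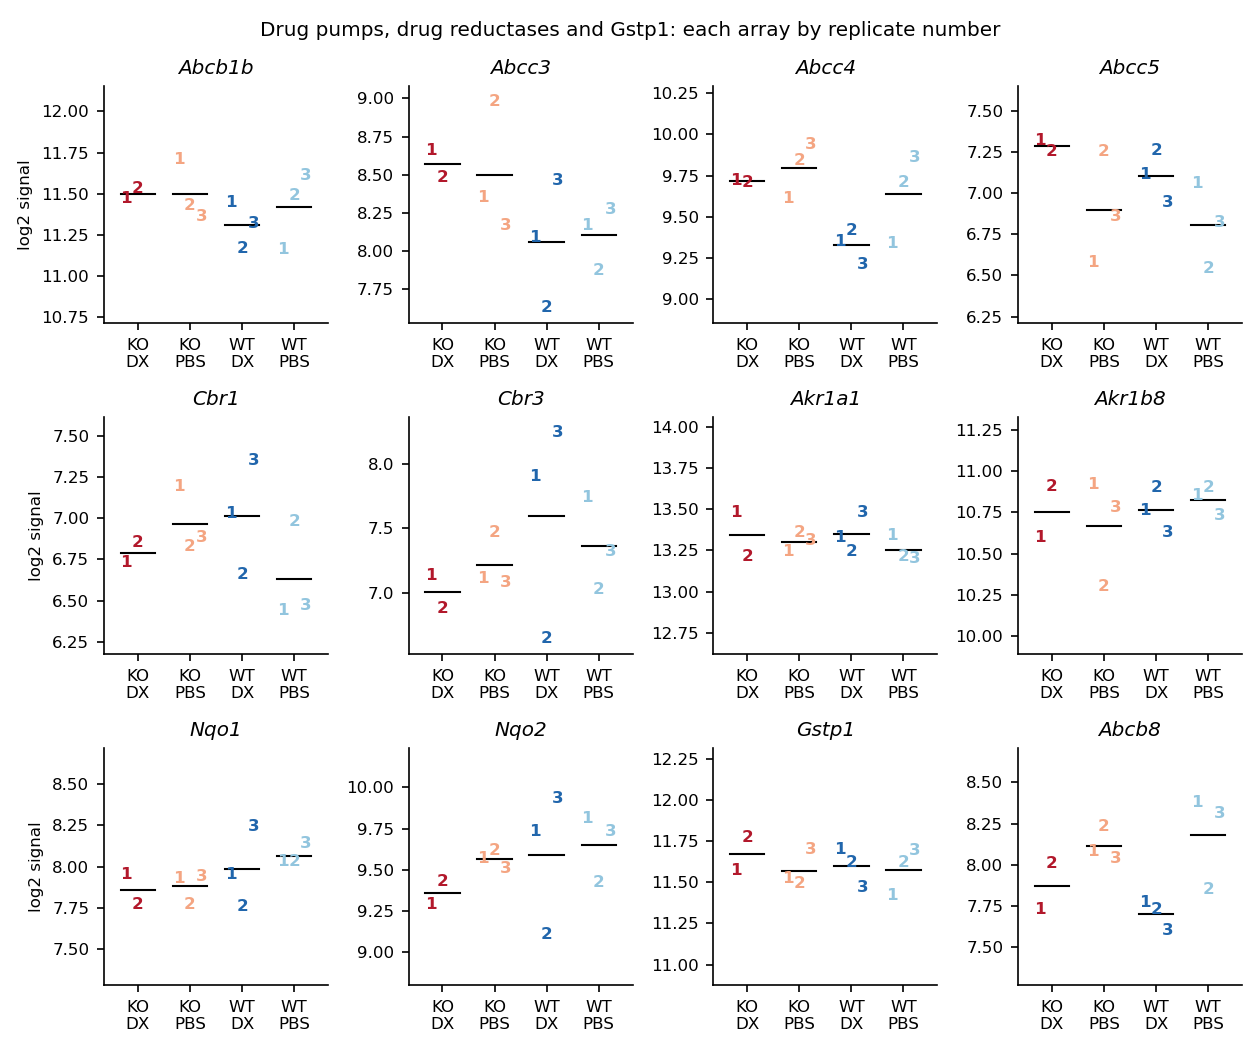
Log2 signal of 12 pumps, reductases and Gstp1 in KO DX, KO PBS, WT DX and WT PBS tumours; each digit is an array, named by its replicate number, and bars are group means. The doxorubicin and PBS tumours overlap in both hosts for Abcb1b, Akr1a1, Nqo1 and Gstp1, and each axis has its own range and does not start at 0.

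Among the 9 lipid and cholesterol ABC proteins, Abca8a and Abcg1 stood high in WT DX tumours. Abca8a, an A-subfamily member, had 5.03 and 4.81 in KO DX, 4.77, 4.79 and 5.08 in KO PBS, 6.38, 5.15 and 6.00 in WT DX, and 4.73, 5.12 and 4.87 in WT PBS. It was detected on 2 arrays, both WT DX, and was not well above background elsewhere, so the WT DX tumours were at least 1.34-fold higher than WT PBS (means 5.84 and 4.91, adjusted p = 0.180) and at least 1.45-fold higher than KO DX. WT DX 2, at 5.15, lay just above the highest WT PBS tumour, at 5.12.

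Abcg1, which moves cholesterol to HDL particles and is a target of the liver X receptors, had 6.37 and 6.06 in KO DX, 6.06, 6.34 and 6.07 in KO PBS, 6.99, 6.10 and 6.82 in WT DX, and 6.15, 6.13 and 5.68 in WT PBS. WT DX 1 and WT DX 3 were above all other arrays, and WT DX 2 was inside the PBS range. The difference was 0.65 in WT hosts (SE 0.23, adjusted p = 0.294) and 0.06 in KO hosts (adjusted p = 0.993). Abca2, a lysosomal lipid transporter, had the lowest difference of the 9 in both hosts, with 5.88 and 5.79 in KO DX, 6.26, 6.12 and 6.30 in KO PBS, 5.33, 6.01 and 5.42 in WT DX, and 6.18, 5.75 and 5.85 in WT PBS. Its difference averaged -0.37 over hosts (SE 0.14, unadjusted p = 0.0232, adjusted p = 0.341). Abca3, the lamellar body transporter of lung surfactant lipids, had 10.62 and 10.71 in KO DX, 10.58, 10.63 and 10.81 in KO PBS, 10.60, 10.52 and 10.74 in WT DX, and 10.92, 10.81 and 10.63 in WT PBS, with differences of -0.0019 in KO hosts and -0.17 in WT hosts. Abca5, Abca7 and Abca9 differed by 0.02 to 0.18 in KO hosts, where Abca14 and Abca15 were not well above background with doxorubicin. In WT hosts these 5 ran from -0.32 (Abca15) to 0.38 (Abca9), and Abca9 stood at 0.94 without WT DX 2. With the BeadChip as a block, which also sets WT DX 2 aside, Abca9 stood at 1.54 (limma, unadjusted p = 0.000683, adjusted p = 0.0612).

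On their brightest probes, ABC proteins of organelles and channels leaned low. Of these, 6 of 6 lay below 0 in KO hosts and 5 of 6 in WT hosts, with medians of -0.22 and -0.11. Of all genes, 48.7% lay above 0 in KO hosts and 45% in WT hosts. The count in KO hosts depends on the probe. There the probes of Abcb9 ran from -0.08 to 0.12 and those of Abcd4 from -0.19 to 0.15. Abcb8, a mitochondrial inner membrane protein studied in mice for iron handling in the heart, had 7.73 and 8.01 in KO DX, 8.08, 8.23 and 8.04 in KO PBS, 7.77, 7.73 and 7.60 in WT DX, and 8.38, 7.85 and 8.31 in WT PBS. The doxorubicin and PBS tumours did not overlap in either host. The difference was -0.25 in KO hosts (adjusted p = 0.967) and -0.48 in WT hosts (SE 0.16, adjusted p = 0.263), and -0.36 averaged over hosts (adjusted p = 0.279). All 4 Abcb8 probes were below 0 in WT hosts (-0.79 to -0.38), while in KO hosts they ran from -0.40 to 0.22.

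Abcc9, a regulatory subunit of potassium channels, had the lowest value of this group in KO hosts, -0.50 (adjusted p = 0.908), and its KO DX tumours, at 5.29 and 6.03, overlapped KO PBS at 6.02, 6.33 and 6.13. Abcd3, a peroxisomal fatty acid transporter, differed by -0.11 in KO hosts on its brightest probe, but its 4 probes ran from -0.18 to 1.20 there. The 4 ABC proteins that transport nothing, Abce1 and Abcf1 to Abcf3, which act in translation, were all below 0 in WT hosts (-0.21 to -0.13), and 2 of 4 were below 0 in KO hosts (-0.13 to 0.55).

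The carbonyl reductases held the widest difference of the set. Cbr2, a mouse carbonyl reductase abundant in lung and also used as a marker of resident macrophages, had 8.87 and 8.29 in KO DX, 8.65, 8.43 and 8.36 in KO PBS, 10.58, 8.93 and 10.83 in WT DX, and 9.13, 8.62 and 9.0 in WT PBS. WT DX 1 and WT DX 3 were far above every other array, and WT DX 2 lay between WT PBS 2 and WT PBS 3. WT DX averaged 10.11 ± 1.03 and WT PBS 8.91 ± 0.27 (SD, n = 3 each), a difference of 1.20 (SE 0.40, 2.30-fold, adjusted p = 0.262). In KO hosts the difference was 0.10 (SE 0.45, 95% interval -0.88 to 1.08).

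Cbr1, the main reductase of doxorubicin to doxorubicinol in human liver, had 6.73 and 6.85 in KO DX, 7.19, 6.83 and 6.88 in KO PBS, 7.03, 6.66 and 7.35 in WT DX, and 6.44, 6.98 and 6.47 in WT PBS. The groups overlapped in both hosts, and the difference was -0.17 in KO hosts and 0.38 in WT hosts (adjusted p = 0.503). With the BeadChip as a block these were -0.67 (limma, adjusted p = 0.548) and 0.66 (adjusted p = 0.179). Cbr3, its neighbour in the same family, had 7.14 and 6.88 in KO DX, 7.11, 7.47 and 7.08 in KO PBS, 7.90, 6.65 and 8.24 in WT DX, and 7.74, 7.03 and 7.32 in WT PBS. WT DX 2 was the lowest array of all and WT DX 3 the highest. The differences were -0.21 in KO hosts and 0.24 in WT hosts (limma, adjusted p = 0.828), and another Cbr3 probe gave -0.52 and 0.33. Without WT DX 2 the WT value of the brightest probe was 0.71. With the BeadChip as a block, which also sets WT DX 2 aside, it was 0.79 (limma, adjusted p = 0.104).

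Of the 7 aldo-keto reductases, Akr1c18 separated WT DX from WT PBS. Akr1c18, the 20-alpha-hydroxysteroid dehydrogenase that inactivates progesterone, had 6.45 and 6.41 in KO DX, 6.28, 6.01 and 6.08 in KO PBS, 7.24, 6.50 and 6.42 in WT DX, and 5.72, 6.19 and 5.95 in WT PBS. Doxorubicin tumours did not overlap PBS tumours in either host. The difference was 0.31 in KO hosts (adjusted p = 0.975), 0.76 in WT hosts (SE 0.21, 1.70-fold, adjusted p = 0.179) and 0.54 averaged over hosts (adjusted p = 0.218). It belongs to a cluster of near-identical Akr1c genes, and how far its probe also reads the others is uncertain.

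Akr1a1, an aldehyde reductase that also reduces anthracyclines, had 13.48 and 13.21 in KO DX, 13.24, 13.36 and 13.31 in KO PBS, 13.33, 13.24 and 13.48 in WT DX, and 13.34, 13.21 and 13.20 in WT PBS. Its differences were 0.04 in KO hosts (95% interval -0.27 to 0.35) and 0.10 in WT hosts (-0.17 to 0.38), and another Akr1a1 probe gave 0.25 and 0.44. Akr1b8, an aldose reductase relative, had 10.60 and 10.91 in KO DX, 10.92, 10.30 and 10.78 in KO PBS, 10.76, 10.90 and 10.63 in WT DX, and 10.85, 10.90 and 10.73 in WT PBS. Akr7a5, an aldehyde reductase of the aflatoxin aldehyde family, had 10.56 and 10.49 in KO DX, 10.53, 10.56 and 10.66 in KO PBS, 10.30, 10.61 and 10.46 in WT DX, and 11.02, 10.35 and 10.47 in WT PBS. Neither separated doxorubicin from PBS in either host. Over the family the differences ran from -0.57 (Akr1c12) to 0.31 (Akr1c18) in KO hosts and from -0.35 (Akr1e1) to 0.76 (Akr1c18) in WT hosts.

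Nqo1, the quinone reductase that is a standard NRF2 target, differed little. It had 7.95 and 7.77 in KO DX, 7.93, 7.77 and 7.94 in KO PBS, 7.95, 7.76 and 8.24 in WT DX, and 8.03, 8.03 and 8.14 in WT PBS. The difference was -0.02 in KO hosts (95% interval -0.37 to 0.33) and -0.08 in WT hosts (-0.40 to 0.23). Nqo2, a related reductase, had 9.29 and 9.43 in KO DX, 9.57, 9.62 and 9.51 in KO PBS, 9.73, 9.11 and 9.93 in WT DX, and 9.81, 9.42 and 9.73 in WT PBS, so that KO DX lay below KO PBS without overlap (-0.21, adjusted p = 0.983). Xdh, the xanthine oxidoreductase of purine breakdown, had 10.95 and 10.77 in KO DX, 10.87, 10.39 and 10.76 in KO PBS, 11.25, 10.95 and 11.19 in WT DX, and 10.95, 10.76 and 10.20 in WT PBS. WT DX 1 and WT DX 3 were above every WT PBS tumour and WT DX 2 was level with the highest, with a difference of 0.49 in WT hosts (SE 0.20, adjusted p = 0.374) and 0.19 in KO hosts.

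Glutathione S-transferases leaned high with doxorubicin in both hosts, 11 of 15 above 0 in KO and 11 of 15 in WT, with medians of 0.20 and 0.12, where all genes were above 0 in 48.7% of cases in KO hosts and 45% in WT hosts. None of them passed. The 11 in KO hosts rest on the brightest probes, and this count depends on the probe. There the probes of Gstm1 ran from -0.05 to 0.21 and those of Gstp1 from -0.04 to 0.15. Gstm4 and Gstm6 were detected on 5 and 4 of the 11 arrays, so their values are not exact. The theta class held the highest values in WT hosts, and none of the class passed. Gstt3, a theta transferase, had 7.80 and 7.29 in KO DX, 7.03, 7.29 and 7.46 in KO PBS, 8.35, 7.82 and 8.84 in WT DX, and 7.23, 7.71 and 7.05 in WT PBS. WT DX lay above WT PBS without overlap, at 8.34 ± 0.51 and 7.33 ± 0.34 (SD, n = 3 each), a difference of 1.01 (SE 0.26, 2.01-fold, adjusted p = 0.149), and in KO hosts the difference was 0.29 (adjusted p = 0.981).

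Gstt4 was singled out after its values were seen, because its averaged difference had the smallest adjusted p of the set. It had 7.15 and 6.97 in KO DX, 6.21, 6.22 and 6.06 in KO PBS, 7.40, 6.22 and 7.31 in WT DX, and 5.85, 5.87 and 6.36 in WT PBS. Both KO DX tumours, WT DX 1 and WT DX 3 exceeded every PBS tumour, and WT DX 2 did not. The difference was 0.90 in KO hosts (SE 0.31, adjusted p = 0.718), 0.95 in WT hosts (SE 0.27, adjusted p = 0.197) and 0.92 averaged over hosts (SE 0.21, 1.90-fold, adjusted p = 0.0878). Gstt1 and Gstt2, annotated beside them on chromosome 10, differed by 0.17 and -0.17 in KO hosts and by 0.33 and 0.33 in WT hosts.

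The pi class was split between its members. Gstp1, the abundant pi transferase often raised in drug-resistant cells, had 11.57 and 11.77 in KO DX, 11.52, 11.49 and 11.70 in KO PBS, 11.70, 11.62 and 11.47 in WT DX, and 11.42, 11.62 and 11.69 in WT PBS, with differences of 0.10 in KO hosts (95% interval -0.23 to 0.42) and 0.02 in WT hosts (-0.27 to 0.31). Gstp2, whose start-site window shown above holds an AP-1 motif, had 5.79 and 5.61 in KO DX, 5.47, 5.56 and 5.82 in KO PBS, 6.89, 6.21 and 6.32 in WT DX, and 5.97, 5.77 and 5.44 in WT PBS. All 3 WT DX tumours were above every other array, and the difference was 0.75 in WT hosts (SE 0.20, 1.68-fold, adjusted p = 0.159) and 0.08 in KO hosts. Gstp1, Gstp2 and Gstp3 are close copies, so which copy each probe reads is uncertain.

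Gstm1, a mu transferase, had 8.35 and 8.30 in KO DX, 8.44, 7.77 and 8.16 in KO PBS, 8.53, 8.68 and 8.58 in WT DX, and 8.51, 8.49 and 7.89 in WT PBS, a narrow separation of 0.30 in WT hosts (adjusted p = 0.600). Gsta4, which conjugates the lipid peroxidation product 4-hydroxynonenal, had 7.80 and 7.44 in KO DX, 7.43, 7.25 and 7.19 in KO PBS, 7.52, 7.90 and 7.12 in WT DX, and 7.78, 6.92 and 7.93 in WT PBS, with differences of 0.34 in KO hosts and -0.03 in WT hosts. With the BeadChip as a block these were 1.37 (limma, adjusted p = 0.490) and -0.68 (adjusted p = 0.154), though no BeadChip held both KO DX and KO PBS arrays. Gstm5 and Abcc4, whose windows hold the antioxidant response element core, differed by 0.26 and -0.08 in KO hosts and by -0.03 and -0.31 in WT hosts. Gsto2, a dehydroascorbate-reducing omega transferase, had the second highest value of the class in KO hosts on its brightest probe, 0.74 (limma, unadjusted p = 0.0202, adjusted p = 0.790). That probe gave 0.01 in WT hosts, and another Gsto2 probe gave 0.20 in KO hosts and 0.07 in WT hosts.

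No organic ion carrier passed in either host. Slc22a4, an ergothioneine carrier, had 7.33 and 7.27 in KO DX, 6.83, 6.84 and 6.96 in KO PBS, 6.77, 6.93 and 6.96 in WT DX, and 6.89, 7.05 and 7.23 in WT PBS. Both KO DX tumours were above every other array. The difference was 0.43 in KO hosts (SE 0.14, adjusted p = 0.718) and -0.17 in WT hosts, and the difference between those responses was 0.60 (SE 0.19, unadjusted p = 0.00936, adjusted p = 0.827). Slc22a5, the carnitine carrier annotated close to it on chromosome 11, differed by 0.36 in KO hosts and -0.10 in WT hosts on its brightest probe, and its 3 probes ran from -0.12 to 0.36 in KO hosts and from -0.24 to 0.49 in WT hosts. Of the 5 carriers, 3 were above 0 in KO hosts and 1 in WT hosts.

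**Figure D3:**
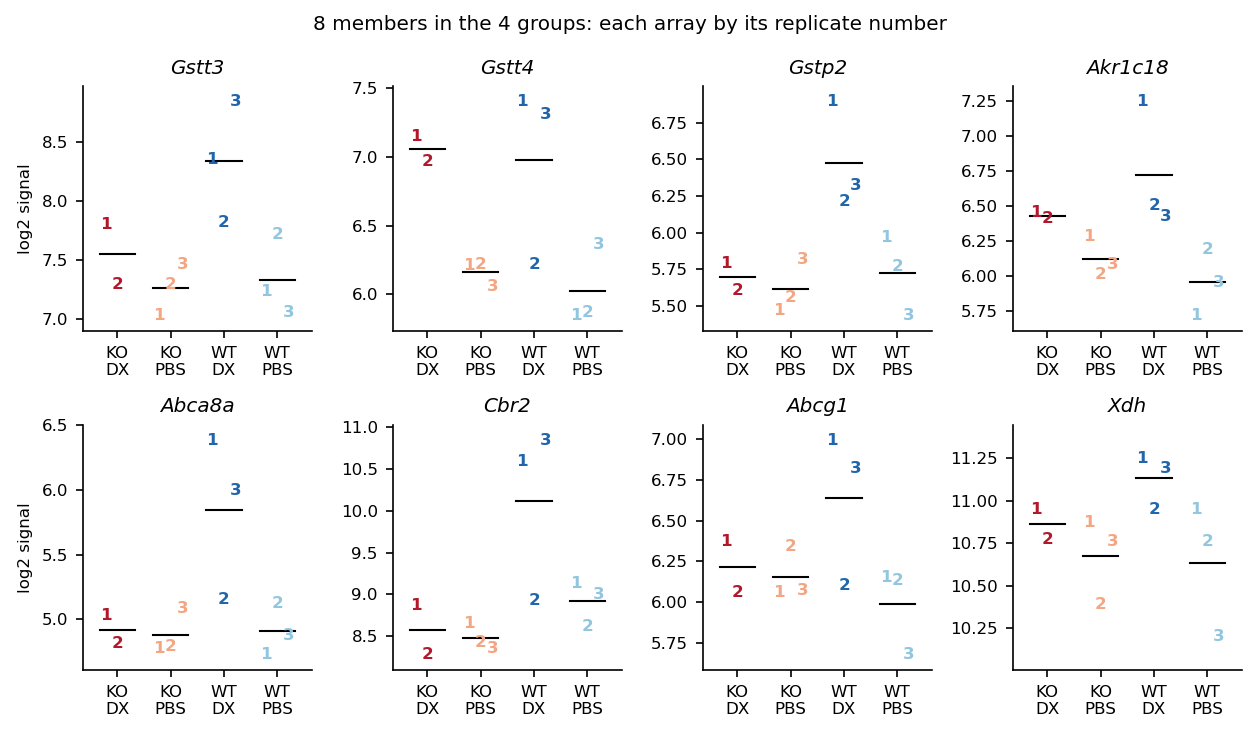
Log2 signal of 8 members in KO DX, KO PBS, WT DX and WT PBS tumours; each digit is an array, named by its replicate number, and bars are group means. For Cbr2, Abca8a, Abcg1 and Gstt4, WT DX 1 and WT DX 3 sit high and WT DX 2 sits near the PBS tumours; each axis has its own range and does not start at 0.

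The counts changed when WT DX 2 was left out. Without it, 5 of 56 members passed in WT hosts (8.93%, all genes 2.19%): Cbr2 at 1.79 (adjusted p = 0.00472, limma), Gstt4 at 1.33 (adjusted p = 0.00764), Gstt3 at 1.26 (adjusted p = 0.0309), Abcg1 at 0.92 (adjusted p = 0.0353) and Abca8a. Abca8a then stood at least 1.7-fold higher in WT DX than in WT PBS (adjusted p = 0.00958), but it had entered the set through WT DX arrays alone, so its call is no support for the others. Short of the threshold without WT DX 2, the nearest were Gstp2 at 0.88 (limma, adjusted p = 0.0694), Akr1c18 at 0.87 (adjusted p = 0.0933) and Abca2, lower at -0.55 (adjusted p = 0.109). Further off were, among others, Cbr3 at 0.71 (unadjusted p = 0.00957, adjusted p = 0.145) and Abca9 at 0.94 (unadjusted p = 0.0186, adjusted p = 0.200). Averaged over hosts, 3 passed without it (5.36%, all genes 1.22%), namely Gstt4, Cbr2 and Abca8a. Leaving out both arrays with Eif2s3y signal (WT DX 2 and WT PBS 3), 3 of 56 passed in WT hosts (5.36%, all genes 0.602%), Cbr2, Gstt4 and Abca8a. WT DX 2 was the single array of its BeadChip, so a BeadChip block fits it exactly and takes it out of these differences. The block is therefore not a setting apart from leaving out WT DX 2. With the BeadChip as a block, 1 of 56 members passed in WT hosts (1.79%, all genes 0.65%), Gstt3 at 1.65 (adjusted p = 0.0457). Within chip 5, WT DX 3 minus WT PBS 3 ran from -1.27 for Abca15 to 1.92 for Abca9 over the members, with 1.84 for Cbr2, 1.79 for Gstt3, 1.14 for Abcg1 and 0.95 for Gstt4, and WT DX 3 was at least 1.6-fold higher for Abca8a. This sets 1 array against 1, and WT PBS 3 is an array with Eif2s3y signal. It was the lowest WT PBS array for Abca9, Gstt3 and Abcg1 and the highest for Gstt4. No BeadChip held both KO DX and KO PBS arrays, or both KO DX and WT DX arrays.

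Markers of other cell types also differed between these arrays. Skeletal muscle markers (10 of 10 measured) had summed signals of 5772 to 7308 in KO DX, 6350 to 6729 in KO PBS, 12839 to 22138 in WT DX and 6778 to 9696 in WT PBS. They stood 1.49 and 0.90 above the mean of all arrays in WT DX 1 and WT DX 3, and also 0.50 above it in WT DX 2. Adipocyte markers (4 of 8 measured, without Plin1, Retn, Cfd and Pck1) stood 0.83 and 1.07 above the mean of all arrays in WT DX 1 and WT DX 3, against -0.17 in WT DX 2, and summed to 903 to 2406 in KO DX, 897 to 1414 in KO PBS, 1301 to 2938 in WT DX and 596 to 1055 in WT PBS. Macrophage markers (8 of 10 measured) stood at 0.31 and 0.46 in WT DX 1 and WT DX 3 and at -0.22 in WT DX 2, with sums of 14261 to 16739 in KO DX, 16388 to 18138 in KO PBS, 13505 to 22072 in WT DX and 15304 to 17601 in WT PBS. Mast cell markers (6 of 7 measured) and keratinocyte markers (4 of 8 measured) were high in WT DX 3, at 1.31 and 1.49. WT DX 1 and WT DX 2 had 0.29 and -0.86 for the mast cell list, and -0.37 and -0.11 for the keratinocyte list. The mast cell sums were 806 to 1172 in KO DX, 969 to 1470 in KO PBS, 529 to 2632 in WT DX and 681 to 1248 in WT PBS, and the keratinocyte sums were 1002 to 1120 in KO DX, 768 to 1348 in KO PBS, 748 to 2395 in WT DX and 920 to 1238 in WT PBS. T cell markers (3 of 6 measured, without Cd4, Trac and Lck) stood at 0.53 and 0.71 in WT DX 1 and WT DX 3 and at -1.26 in WT DX 2, with sums of 580 to 1028 in KO DX, 975 to 1631 in KO PBS, 424 to 1659 in WT DX and 704 to 1630 in WT PBS. Red blood cell markers (4 of 4 measured) were low with doxorubicin, with sums of 5154 to 5331 in KO DX, 6154 to 12631 in KO PBS, 2000 to 4282 in WT DX and 7740 to 26866 in WT PBS. For doxorubicin in WT hosts 2 of 4 of them passed as lower (all genes 0.0659%). In that comparison 4 of 10 skeletal muscle, 2 of 6 neutrophil and 1 of 8 macrophage markers passed as higher (all genes 0.555%), and no marker of the other lists passed. Neutrophil markers (6 of 7 measured, without Ly6g) were high with doxorubicin in both hosts, with sums of 4269 to 5683 in KO DX, 3191 to 3490 in KO PBS, 4743 to 5744 in WT DX and 1699 to 2750 in WT PBS, and Cxcr2 was not detected on any PBS array. The part of these cells in the values of Cbr2, Gstt3, Gstt4, Abca8a, Abcg1, Akr1c18 and Hmox1 was not tested.

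**Figure D4:**
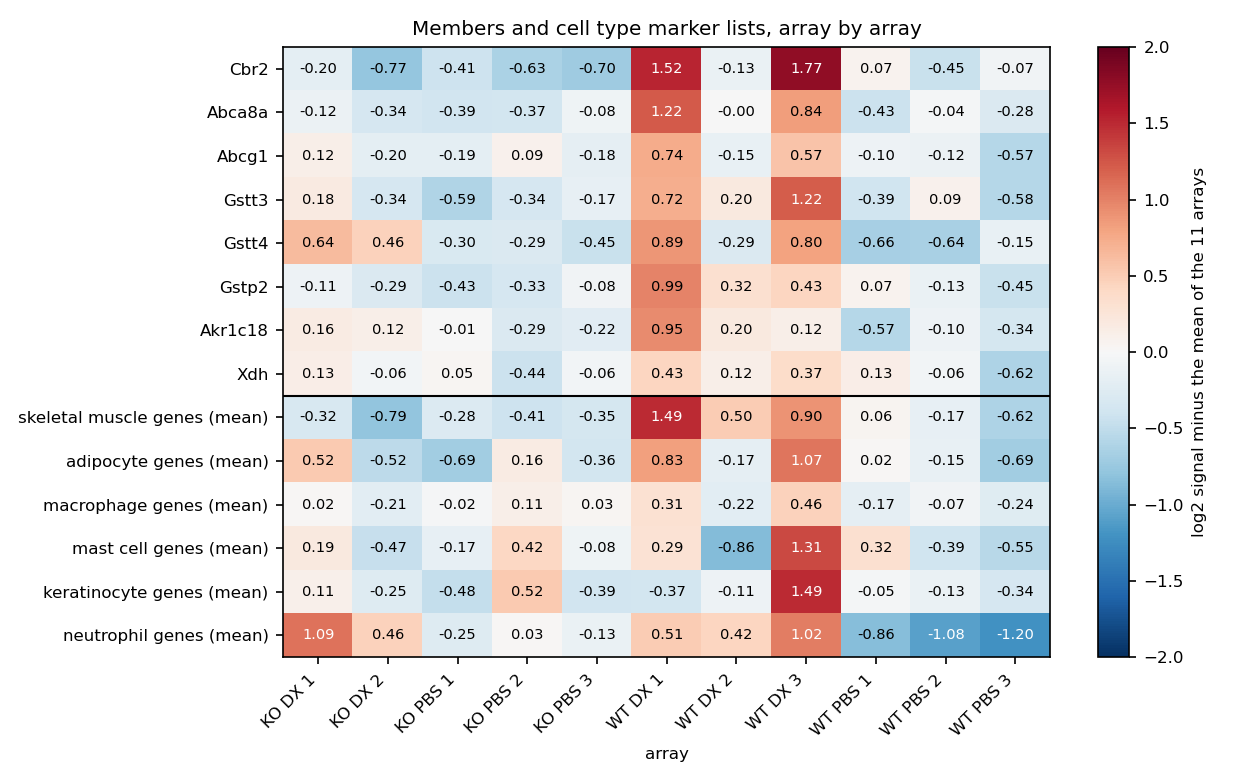
Log2 signal minus the mean of the 11 arrays for 8 members (above the line) and the mean over 6 marker lists (below it), array by array. WT DX 1 and WT DX 3 are the arrays where Cbr2 (1.52 and 1.77), Gstt3 (0.72 and 1.22) and the skeletal muscle list (1.49 and 0.90) are high together. On WT DX 2 the skeletal muscle list is also high, at 0.50, while Cbr2 is at -0.13 and Gstt3 at 0.20.

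Between hosts, 0 of 56 members passed in KO against WT hosts given doxorubicin (all genes 0%), 0 of 56 given PBS (all genes 0.00941%) and 0 of 56 averaged over treatments (all genes 0.0377%). With PBS no member reached an unadjusted p under 0.05 either (all genes 5.48%), and the widest member values were -0.43 for Cbr2 and 0.65 for Abca5. With doxorubicin 7 of 56 did (12.5%, all genes 6.7%), 5 lower (8.93%, all genes 3.72%) and 2 higher (3.57%, all genes 2.98%) in KO hosts. Those lower were Cbr2, Abca8a, Gstp2, Gstt3 and Gstt1, and those higher were Slc22a4 and Abcc4. Averaged over treatments 6 of 56 did (10.7%, all genes 7.22%). KO and WT tumours did not overlap for 20 of 56 members given doxorubicin (35.7%, all genes 27.1%) and for 4 of 56 given PBS (7.14%, all genes 9.38%). With an unadjusted p under 0.01 as well, these were 3 of 56 given doxorubicin (5.36%, all genes 1.69%), namely Cbr2, Gstp2 and Abca8a, which was detected on WT DX arrays alone, and 0 of 56 given PBS (all genes 1.18%).

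Given doxorubicin, Cbr2 differed by -1.53 between KO and WT hosts (SE 0.45, 95% interval -2.52 to -0.55, adjusted p = 0.515) and Gstp2 by -0.78 (SE 0.22, adjusted p = 0.493), with all KO DX tumours below all WT DX tumours for both. Abca8a was not well above background in KO DX, with means of 4.92 in KO DX and 5.84 in WT DX (adjusted p = 0.572). These comparisons use the same WT DX arrays as the doxorubicin comparison in WT hosts. Without WT DX 2, 2 of 56 members passed (3.57%, all genes 0.358%), Cbr2 at -2.12 (adjusted p = 0.00856) and Abca8a, which was at least 1.84-fold higher in WT DX than in KO DX (adjusted p = 0.0331) and had entered the set through WT DX alone. Averaged over treatments, Gstt1 differed by -0.43 (SE 0.13, unadjusted p = 0.00825, adjusted p = 0.502), with all KO tumours (9.37 and 9.44 in KO DX, 9.20, 9.31 and 9.19 in KO PBS) below all WT tumours (10.38, 9.64 and 9.72 in WT DX, 9.68, 9.50 and 9.57 in WT PBS).

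For the difference between the hosts' doxorubicin responses, 0 of 56 members and 0% of all genes passed. At an unadjusted p under 0.05 there were 3 of 56 (5.36%, all genes 4.69%): Slc22a4 at 0.60, Gstp2 at -0.67 and Abca8a, whose value is not exact because its probe was not well above background in KO DX, KO PBS and WT PBS. Cbr2 had the lowest value, -1.10, which did not reach that level; without WT DX 2 it was -1.69 (unadjusted p = 0.00021, adjusted p = 0.124). The interval stayed within a 2-fold difference for 30 of 56 members (53.6%, all genes 70.1%).

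Genes of the same pathways outside the set were likewise mostly short of the threshold, as were most of all genes tested. Of 34 NRF2 and glutathione genes 28 were measured. Of these, 0 passed in KO hosts (all genes 0%), 0 in WT hosts (all genes 0.621%) and 1 averaged over hosts (all genes 0.537%). That gene was Hmox1, heme oxygenase 1, with 11.12 and 10.08 in KO DX, 9.66, 8.87 and 9.30 in KO PBS, 10.68, 10.27 and 10.71 in WT DX, and 8.88, 8.90 and 9.57 in WT PBS. Hmox1 rose in doxorubicin tumours by 1.38 averaged over hosts (SE 0.22, adjusted p = 0.0228), with 1.32 in KO hosts (adjusted p = 0.463) and 1.44 in WT hosts (adjusted p = 0.0631), and no doxorubicin tumour overlapped the PBS tumours of its host. The call was lost when KO DX 1 (adjusted p = 0.138), KO PBS 2 (0.0529), KO PBS 3 (0.0792), WT DX 1 (0.0675), WT DX 3 (0.0580) or WT PBS 2 (0.0544) was left out, with the BeadChip as a block (0.0838) and without the dim arrays (0.0716).

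Ephx1, microsomal epoxide hydrolase, had 8.73 and 8.20 in KO DX, 7.82, 7.70 and 7.84 in KO PBS, 9.77, 9.19 and 9.75 in WT DX, and 8.95, 7.89 and 8.17 in WT PBS. Its WT DX tumours were above all others, with differences of 0.68 in KO hosts (adjusted p = 0.911) and 1.23 in WT hosts (adjusted p = 0.0698). Over the 28 genes the differences ran from -0.70 to 1.32 in KO hosts, with a median of 0.05, and from -0.43 to 1.44 in WT hosts, with a median of 0.10. Of the other anthracycline-handling genes 16 of 22 were measured and 0 passed in any comparison, where at most 0.621% of all genes did. Top2a, the drug's target, was at -0.0099 in KO hosts and 0.16 in WT hosts. Of the nuclear receptor and cholesterol genes 15 of 24 were measured and 0 passed, against the same shares of all genes. Nr1h3, the liver X receptor that drives Abcg1, differed by 0.13 in KO hosts and 0.64 in WT hosts (limma, adjusted p = 0.561).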

How the data were processed

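Total RNA of 11 tumours was measured on Illumina arrays. The deposited non-normalized table gives each probe's intensity and detection p-value per array, per the file headers, and both were used as deposited. The authors' normalised table holds log2 values of 19215 probes (deposited, array medians of 8.39 to 8.40); per the submitters' processing notes Partek was used, with settings not given in the sources used here.

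Intensities were corrected and normalised with neqc (limma 3.58.1, R 4.3.3; background from detection p-values, offset 16, quantile, log2). Probes with a detection p under 0.05 on 2 or more arrays were kept (20433 of 45281), and 10623 genes were tested on their brightest kept probe. Names came from the platform annotation, which covers the probes of the authors' table alone; 16252 kept probes had 1 symbol. One limma model with 4 group means (7 residual degrees of freedom, 4.04 prior) gave 7 contrasts, adjusted by Benjamini-Hochberg within each, and 95% intervals. Where a group had no detected array, a fold is a bound against the lowest detected signal of each array.

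Named are members past an adjusted p of 0.05, members without overlap at an unadjusted p under 0.01, a fixed set known for anthracycline handling, and those said in the text to be singled out; others named are the extremes of their role or the members counted. Members, lists and rules were chosen with earlier results of these data known, and the AP-1 motif after the sequences were read. The fit was tested on simulated data. No replicate was a copy of another (0 identical arrays; correlations of 0.974 to 0.992 within groups). Replicate numbers were not used to pair the tumours. Of 15 same-numbered pairs of arrays, 4 had deviations from their group means correlated above 0.1 (range -0.291 to 0.304). All 4 held a KO DX array, and with 2 arrays in that group these deviations mirror each other. Such correlations therefore cannot show whether the tumours were paired. The number of arrays limits the precision. Alternatives covered background correction, scaling, filters, probe choice, batch and replicate blocks, the eBayes settings, the authors' table and leaving out each array.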

Additional observations from a re-analysis of the deposited data

How the results depend on the processing

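No member passed in any comparison as reported, and 148 of 172 recomputed counts of members were also 0. Leaving out each array in turn gave 0 to 5 members for doxorubicin in WT hosts and 0 to 3 averaged over hosts. It gave 0 to 2 for KO against WT hosts given doxorubicin, 0 to 1 averaged over treatments, and 0 in the other comparisons. Every count above 0 there came from leaving out WT DX 2. The shares of all genes were then 2.19%, 1.22%, 0.358% and 0.141% in that order, and those of members 8.93%, 5.36%, 3.57% and 1.79%. The authors' table gave 34 members for doxorubicin in WT hosts, 22 in KO hosts, 32 averaged over hosts, 30 for the difference of the responses, 12 for KO against WT given PBS, 35 given doxorubicin and 20 averaged over treatments, where the shares of all genes were 51.3%, 47.8%, 43%, 55.7%, 24.1%, 55.8% and 32.6% in the same order and those of members 60.7%, 39.3%, 57.1%, 53.6%, 21.4%, 62.5% and 35.7%. Its median spread within groups was 0.0724 on the log2 scale, against 0.224 for the same 10623 genes after neqc. Its WT DX 2 and WT PBS 2 columns equal the mean of the other columns of their group (largest difference 7e-05); without them (an alternative chosen after seeing the data) the counts were 18, 15, 15, 20, 1, 24 and 10 in that order (all genes 25.9%, 34.8%, 21.9%, 38.2%, 3.96%, 39.8% and 11.6%), and the spread 0.0856, against 0.204. Leaving out both arrays with Eif2s3y signal was also chosen after seeing the data. It gave 3 members in WT hosts (5.36%, all genes 0.602%) and 2 averaged over hosts (3.57%, all genes 0.725%). For KO against WT it gave 1 given doxorubicin (1.79%, all genes 0.329%) and 1 averaged over treatments (1.79%, all genes 0.226%). The BeadChip as a fixed block, which also sets WT DX 2 aside, gave 1 in WT hosts (1.79%, all genes 0.65%). A trended, robust fit gave 1 (Gstt4) for doxorubicin averaged over hosts.

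The count of all genes ranged over the settings from 10 to 5532 in WT hosts (66 as reported), 0 to 5153 in KO hosts (0), 17 to 4634 averaged over hosts (57), 0 to 6001 for the difference of the responses (0), 0 to 2601 for KO against WT given PBS (1), 0 to 6013 given doxorubicin (0) and 0 to 3509 averaged over treatments (4), each time highest in the authors' table. With the replicate number as a block, 0 members passed in each comparison, and 63 genes in WT hosts. Whether the numbers pair the tumours is not known. Of 197 recomputed values of members named for their difference and of Hmox1, 168 kept their direction and their side of the threshold, 21 newly passed, 8 (all Hmox1) no longer passed and 0 reversed. The cause was not tested. Abca8a, Abca14, Abca15, Gstm4 and Gstm6 lie close to background, which limits their folds.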
